A study of Mus musculus with 12 samples.

Results

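Gene expression after adding 2i to cells that already received ascorbic acid was compared between AA+2i and AA alone, 3 libraries against 3, which are 6 of the 12 libraries of the study. The libraries were chosen by their labels, and no measured value entered the choice. All libraries came from mouse pre-iPSCs, cells of a partially reprogrammed line that look like embryonic stem cells but have not reached the pluripotent state. AA cultures received ascorbic acid (vitamin C) at 50 µg/ml, and AA+2i cultures received the same dose with 2i, a pair of kinase inhibitors at 1 µM for MEK (the compound PD-0325901) and 3 µM for GSK (CHIR-99021). The other 6 libraries came from cultures with the solvent DMSO or with 2i alone. They are used here to set the change with 2i in the presence of AA beside its change in the absence of AA. All 12 libraries were fitted together unless stated otherwise. The DMSO and 2i libraries therefore also enter the spread, standard errors and p-values of AA+2i against AA. All cultures were treated for 48 h (day 2) in serum medium made for embryonic stem cells, and the growth feeders were left out during treatment. Each condition has biological replicates A, B and C. Lines of this kind carry transgenes for Oct4, Sox2, Klf4 and c-Myc. Reads of Pou5f1 (the Oct4 gene), Sox2, Klf4 and Myc can come from the transgene or from the cell's own gene, and these cannot be told apart here. The labels do not name the tissue of origin of the line.

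MEK is the kinase directly above ERK, the last kinase of the pathway through which FGF, EGF and other growth factors signal. ERK activity switches on the genes of its own inhibitors, such as the Dusp phosphatases and the Sprouty proteins, so that their transcripts serve as a reading of the pathway. GSK3 marks β-catenin for destruction, and a GSK3 inhibitor lets β-catenin accumulate and act with TCF/LEF factors on Wnt target genes, among them the Wnt inhibitors Axin2 and Dkk1. The same inhibitor pair holds mouse embryonic stem cells in the naive state, in which Esrrb, Tbx3, Klf2 and Nanog are expressed. Ascorbic acid is a cofactor of dioxygenases, among them TET enzymes and histone demethylases.

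The 12 libraries held between 16173322 and 54392719 expected counts, and AA B was the deepest. The libraries differed in how strongly they represented GC-rich transcripts, and this difference was not shared by the letters. A smooth curve of each library's deviation in log2 CPM (counts scaled by library size) against transcript GC content was read at 65% GC, where AA+2i minus AA came to 2.51 for letter A, −0.35 for letter B and 0.91 for letter C. At this GC content DMSO A and AA A were the lowest of all libraries, at −1.93 and −1.88. Each gene was therefore tested in 4 models, with and without the replicate letter as a block and with and without these GC curves. The model with the block and without the curves is the main one, and changes called in all 4 models are named as such. All adjusted p-values are from edgeR's quasi-likelihood test with Benjamini-Hochberg adjustment over the genes tested (13400, or 12866 to 13287 where a letter was left out), and 0.05 was the threshold. Levels are in TPM (a relative number of transcripts, scaled by transcript length and library), and changes are log2 fold changes of counts with their standard errors. Bulk RNA cannot tell a change within cells from a change in the share of cells of a type.

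With AA+2i, 900 genes were higher than with AA (6.72% of those tested) and 1092 were lower (8.15%). All 4 models called 356 of them higher (2.66%) and 433 lower (3.23%). The direction was the same in all 3 letters for each of the 900 genes and for 1090 of the 1092. A call in a fit of these same letters largely requires this, so it is not a separate replication. The median change was 1.36 on the log2 scale among the higher genes and −1.07 among the lower ones. A log2 change of at least 3, which is 8-fold on the linear scale, was reached by 110 higher and 72 lower genes, and 98 and 68 of these were called in all 4 models. The numbers depended on the block, on single letters and on the libraries that were fitted. A fit of only the 6 libraries compared called 150 genes higher and 141 lower. Without the block 376 of the higher and 441 of the lower genes were still called, and the model without letter C called 116 and 83 genes in all. Of the genes described below, Dusp4, Etv1, Tbx3, Tcfcp2l1, Esrrb, Klf2, Dppa3, Piwil2, Otx2, Wnt8a, Tgfbi, Lamb1, Lama3, Dsp, Gsta1, Dusp6 and Igf2 were called with each letter left out in turn.

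The 20 genes with the largest called changes and a mean of at least 5 TPM in the higher condition did not overlap between the AA and AA+2i libraries, and all 20 were called in all 4 models. With any 1 letter left out 19 of them were tested and called. They were chosen from these same libraries by their calls, their shared direction and the size of their changes. The separation and the repeated calls therefore follow largely from the choice and add no separate support. Sprr2a1 and Sprr2a2, which carried identical values, are both counted. The gene with the largest fall was Tac2 (on chromosome 10, mm9 127162448 to 127168823), the precursor of the neuropeptide neurokinin B. It was at 41.96, 56.58 and 31.14 TPM in AA A, B and C and at 0.15, 0.37 and 0.23 TPM in AA+2i A, B and C. Every AA library was therefore high and every AA+2i library was near 0. The log2 change was −7.15 ± 0.26 (SE, n = 3 against 3, adjusted p = 3.38e-06). Tph1, tryptophan hydroxylase, the first enzyme of serotonin synthesis outside neurons, was at 45.97, 34.17 and 49.79 TPM with AA and at 0.94, 1.23 and 1.00 TPM with AA+2i (log2 change −5.09 ± 0.33, adjusted p = 2.98e-05). Upk1b, a uroplakin of the urothelial surface, was at 17.82, 19.31 and 25.87 TPM with AA and at 0.11, 0.41 and 0.17 TPM with AA+2i. Calcrl, the receptor partner for calcitonin gene-related peptide and adrenomedullin, fell by 4.77 on the log2 scale, from 91.45, 33.27 and 19.54 TPM to 1.94, 1.84 and 0.56 TPM. The AA libraries of Calcrl differed among themselves more than those of Tac2 or Tph1, but each was above every AA+2i library. The other 6 of the 10 were Ctxn3 (log2 change −5.85), Sult1c1, a sulfotransferase (−5.77), Fam55b (−5.30), St8sia2, a polysialyltransferase (−5.05), Slc35d3 (−4.94) and Lect1, chondromodulin (−4.54).

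**Figure D1:**
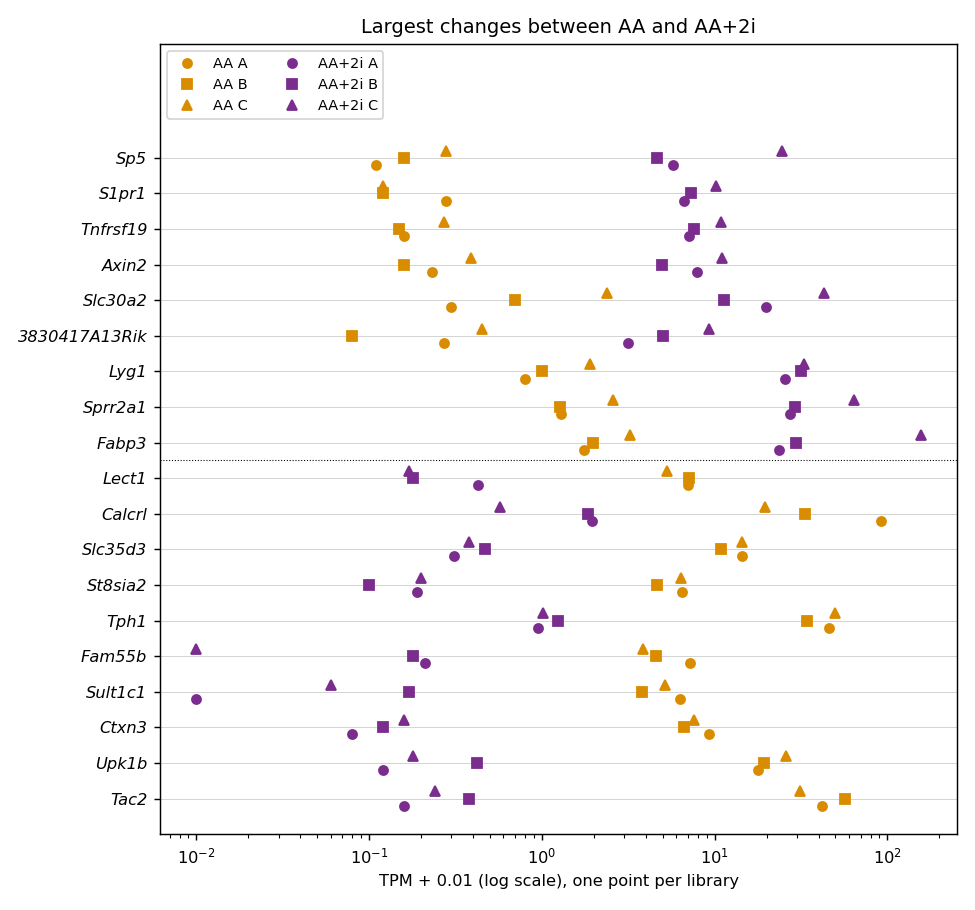
TPM plus 0.01 on a log axis of the 10 genes with the largest falls and the 10 with the largest rises (Sprr2a1 stands for both copies), 1 point per library of AA and of AA+2i. In each gene the 3 AA points and the 3 AA+2i points do not overlap, and Tac2 shows the widest gap. The genes were chosen by their calls and the size of their changes.

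Of the genes with the largest rises, Sp5, Tnfrsf19 and Axin2 are known Wnt targets and are described with that pathway. S1pr1, a receptor for sphingosine 1-phosphate, was at 0.27, 0.11 and 0.11 TPM with AA and at 6.67, 7.31 and 10.14 TPM with AA+2i (log2 change 5.88 ± 0.44, adjusted p = 5.73e-05). Lyg1, which encodes a lysozyme of the goose type, was at 0.79, 0.99 and 1.90 TPM with AA and at 25.56, 31.68 and 32.88 TPM with AA+2i. Its rise was 28.5-fold, and all AA+2i libraries lay above all AA libraries. Fabp3, a fatty acid binding protein, was at 1.74, 1.97 and 3.22 TPM with AA and at 23.74, 29.49 and 157.2 TPM with AA+2i, so that AA+2i C stood far above the other two. The zinc transporter gene Slc30a2 rose by 4.91 on the log2 scale and 3830417A13Rik by 4.89. The keratinocyte envelope genes Sprr2a1 and Sprr2a2 carried identical values in every library (log2 change 4.70 ± 0.33). These copies share reads, so the level of each one is uncertain.

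The Wnt targets and feedback genes were the list with the most rises. To be tested, a gene needed 10 counts in 3 of the 12 libraries, which 17 of the 21 listed members had. Of these 17, 12 were called higher and 1 lower, and 9 of the rises held in all 4 models. Over all genes tested 6.72% were higher and 8.15% lower. Dkk1, Nkx1-2 and Cdx1 had at most 3 counts over the AA libraries and at most 3 over the DMSO libraries. They therefore passed this filter only through libraries with 2i and could hardly be called lower, and the counts and median of the list include them. The median log2 change of the list was 2.72, against 0.02 over all genes tested. With the GC curves it was 1.95. Sp5, a transcription factor that represses Wnt targets (chromosome 2, mm9 70312980 to 70315786), was at 0.10, 0.15 and 0.27 TPM with AA and at 5.71, 4.63 and 24.67 TPM with AA+2i. All AA+2i libraries were above all AA libraries, with C the highest, and the log2 change was 5.90 ± 0.55 (adjusted p = 0.000179). Axin2, a scaffold of the complex that destroys β-catenin (chromosome 11, mm9 108781663 to 108812097), was at 0.22, 0.15 and 0.38 TPM with AA and at 7.96, 4.95 and 11.11 TPM with AA+2i. This is a 38.2-fold rise (log2 change 5.25 ± 0.34, adjusted p = 2.91e-05). Tnfrsf19, a receptor of the TNF family, rose from 0.15, 0.14 and 0.26 TPM to 7.14, 7.55 and 10.89 TPM (log2 change 5.76 ± 0.30).

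Several Wnt feedback genes were nearly absent with AA alone. Dkk1, a secreted inhibitor of Wnt receptors, had 1 count over the 3 AA libraries and 255 over the 3 AA+2i libraries, of which AA+2i C gave 218. After correction for library size the ratio was 399, with a 95% interval of 70.9 to 15800 that covers counting error only. The transcription factor genes Nkx1-2 (68 counts against 1, ratio 106, interval 18.5 to 4260) and Cdx1 (83 against 3, ratio 43.3, interval 14.3 to 214) showed the same pattern of low counts. Nkd1, an inhibitor of the Dishevelled protein, rose by 3.55 and Rnf43, a ubiquitin ligase that removes Wnt receptors, by 3.41 on the log2 scale, although AA+2i levels stayed between 0.35 and 1.56 TPM. Bambi, a pseudoreceptor for TGF-β ligands and a Wnt target, rose from 3.71, 4.17 and 5.21 TPM to 9.10, 10.94 and 13.54 TPM (log2 change 1.53 ± 0.15). Notum, a secreted enzyme that inactivates Wnt ligands, was the most abundant member. It was at 7.45, 41.31 and 80.82 TPM with AA and at 144.4, 103.5 and 261.0 TPM with AA+2i (adjusted p = 0.0154), but its AA libraries were spread widely and it was not called without the block (adjusted p = 0.282). Ascl2 (log2 change 1.79) and Tcf7 (1.05) also lost their calls without the block. Without letter C the adjusted p was 0.0534 for Bambi, 0.0584 for Nkx1-2 and 0.0893 for Rnf43. Lef1 did not pass (log2 change 0.78 ± 0.28, adjusted p = 0.0916), while 2i without AA gave a change of 2.18 (adjusted p = 0.00173). The 1 member called lower was Wif1, a Wnt inhibitor (log2 change −1.07, adjusted p = 0.0454), and that call was not made in all 4 models.

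Promoter sequences are shown for the 4 genes of the 20 largest changes in which the TCF/LEF motif CTTTGAT was found upstream of a RefSeq start. Several named genes have no entry in the promoter table, so a gene that is not shown need not lack the motif. Each run is 100 bases, written 5′ to 3′ on the strand of the gene, with the motif in capitals. ATCAAAG is the same motif on the opposite strand. The sequences are from the RefSeq promoter table (GRCm38.p6) and each matched mm9 at 1 place, given here with the strand of the gene. They begin 150 (Sp5), 248 (Tnfrsf19), 127 (Tac2) and 179 (Tph1) bases before the start in that table, which can lie outside the gene bounds of the mm9 annotation given above.
Sp5 (rose, chr2:70312830-70312929, plus strand): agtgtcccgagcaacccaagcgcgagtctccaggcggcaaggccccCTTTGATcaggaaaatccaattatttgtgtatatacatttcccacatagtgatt
Tnfrsf19 (rose, chr14:61656973-61657072, minus strand): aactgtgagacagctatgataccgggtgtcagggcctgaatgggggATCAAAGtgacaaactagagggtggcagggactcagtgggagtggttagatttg
Tac2 (fell, chr10:127161407-127161506, plus strand): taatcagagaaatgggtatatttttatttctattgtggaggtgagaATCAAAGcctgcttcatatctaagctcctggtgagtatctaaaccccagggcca
Tph1 (fell, chr7:53927987-53928086, minus strand): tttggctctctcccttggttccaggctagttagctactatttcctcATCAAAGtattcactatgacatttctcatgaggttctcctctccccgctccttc
The motif stood upstream of genes of either direction. In windows of 250 bases before to 50 bases after the start, and on both strands, it was found in 2.34% of the 939 windows of called higher genes, in 3.60% of the 1139 windows of called lower genes and in 2.54% of the 13673 windows of all tested genes with a window. Over all 32851 windows of the table the share was 3.73%. The windows cover 701 of the called higher genes, 844 of the called lower genes and 11 genes of the Wnt list. Of the 17 windows of those 11 genes 2 held the TCF/LEF motif. The ETS motif CCGGAAG was in 8.95% of the windows of higher and 7.73% of those of lower genes, against 16.3% of the windows of all tested genes and 8.86% of the whole table. A match describes the letters in these windows and does not say that a factor binds there.

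The feedback inhibitors of ERK were lower for 9 of 12 tested members, called or not. Of the 12, 7 were called lower, 5 of them in all 4 models, beside 8.15% lower over all genes tested. The list had 0 called higher (1 at an unadjusted edgeR p under 0.05, and 0 by DESeq2 and by limma), and its median log2 change was −0.84. The 3 members with a positive change, Dusp5, Dusp7 and Il17rd, were not called. Il17rd was higher in each letter (log2 differences of 0.53, 0.65 and 0.15 in A, B and C), while Dusp5 and Dusp7 differed in direction between letters. Dusp6, the phosphatase that inactivates ERK in the cytoplasm (chromosome 10, mm9 98725865 to 98730122), was at 75.19, 57.96 and 59.88 TPM with AA and at 6.22, 6.19 and 6.63 TPM with AA+2i. The AA+2i libraries lay within 1 TPM of each other, and the fall was 8.85-fold (log2 change −3.14 ± 0.17, adjusted p = 2.32e-05). Dusp4, a nuclear ERK phosphatase, fell from 19.56, 19.55 and 18.01 TPM to 3.78, 3.02 and 3.26 TPM (log2 change −2.33 ± 0.18). Among the Sprouty and Spred genes, which act above ERK, Spry1 fell by 1.93, Spred1 by 1.65, Spry4 by 1.08 and Spred2 by 0.67 on the log2 scale. The calls of Spred1 (adjusted p = 0.0527 without the block) and Spred2 were not made in all 4 models. Spry2, the most abundant Sprouty gene tested, was at 101.5, 81.64 and 98.78 TPM with AA and at 71.75, 57.94 and 59.75 TPM with AA+2i and did not pass (log2 change −0.39 ± 0.13, adjusted p = 0.0768). Errfi1, an inhibitor of the EGF receptor, fell by 1.01 on the log2 scale. Without letter C the adjusted p was 0.0762 for Spry1, 0.0534 for Spry4 and 0.219 for Errfi1, while Dusp6 and Dusp4 stayed called (0.0122 and 0.0246).

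The transcription factor genes induced by ERK were mixed. Of 14 tested members 5 were called lower and 1 higher, and 3 of the falls held in all 4 models. Over all genes tested 8.15% were lower and 6.72% higher, and the share of rises in the list is near the latter. The ETS factor genes Etv1 (log2 change −1.91 ± 0.16), Etv4 (−1.33 ± 0.30) and Etv5 (−0.81 ± 0.16) were all lower with AA+2i, though Etv4 was not called without the block. Etv5 remained abundant, at 247.6, 221.0 and 147.2 TPM with AA+2i. Maff, a small MAF factor, fell from 25.52, 35.25 and 29.03 TPM to 7.45, 9.94 and 8.97 TPM, and Klf10 fell by 0.45 on the log2 scale but was not called without the block (adjusted p = 0.243). The immediate early genes, which respond within minutes to a stimulus, differed between letters. Egr1 was at 25.18, 32.05 and 31.70 TPM with AA and at 0.35, 12.55 and 54.76 TPM with AA+2i. The difference on the log2 scale was −5.81 in letter A, −1.28 in B and 1.09 in C, and Egr1 did not pass (log2 change −0.89 ± 1.2, adjusted p = 0.624). Fos (6.99, 39.28 and 166.8 TPM with AA+2i), Junb (41.87, 10.53 and 262.9 TPM) and Ier2 (44.86, 25.45 and 213.2 TPM) were also highest in AA+2i C and did not pass. Jun was the member called higher (log2 change 1.89 ± 0.47, adjusted p = 0.0253), its AA and AA+2i libraries overlapped, and it was not called without the block (adjusted p = 0.228). Myc did not pass (log2 change −0.05 ± 0.40).

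The naive pluripotency transcription factors gave 5 higher and 1 lower call among 16 tested members, and 3 of the rises were called in all 4 models. Over all genes tested 6.72% were higher and 8.15% lower, and the share of falls in the list is near the latter. The median log2 change was 0.27. Tbx3, a T-box factor of the naive network, was at 0.21, 0.06 and 0.27 TPM with AA and at 1.79, 1.51 and 4.95 TPM with AA+2i (log2 change 4.17 ± 0.33, adjusted p = 6.95e-05). Tcfcp2l1 was at 22.06, 13.11 and 13.01 TPM with AA and at 65.26, 61.64 and 33.81 TPM with AA+2i (log2 change 1.92 ± 0.19, adjusted p = 0.000247). Esrrb, an orphan nuclear receptor (chromosome 12, mm9 87702067 to 87862578), was at 0.37, 0.47 and 1.22 TPM with AA and at 2.33, 2.53 and 2.73 TPM with AA+2i, a low level that nonetheless did not overlap with AA (log2 change 2.19 ± 0.30, adjusted p = 0.00136). These 3 genes were the members called in all 4 models. Klf2 rose from 8.76, 8.36 and 18.11 TPM to 41.54, 32.49 and 95.40 TPM (log2 change 2.41 ± 0.28, adjusted p = 0.000602). Nanog (chromosome 6, mm9 122657507 to 122664651) rose from 19.60, 16.80 and 17.10 TPM to 37.08, 40.92 and 31.73 TPM. Its groups did not overlap, but the call was near the threshold (log2 change 1.22 ± 0.31, adjusted p = 0.0283, and 0.0548 without the block), and it was lost with any letter left out (adjusted p = 0.106, 0.0549 and 0.0934 without A, B and C). Zfp42 (Rex1) was the member called lower, from 12.46, 14.68 and 20.35 TPM to 5.79, 7.34 and 7.01 TPM, and it too lost the call without the block (adjusted p = 0.113). Pou5f1 (log2 change 0.12 ± 0.38), Sox2 (1.16 ± 0.86) and Klf4 (1.35 ± 0.72), all carried as transgenes, did not pass. Klf4 was at 35.23 TPM in AA A and at 250.6 and 280.3 TPM in AA B and C.

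**Figure D2:**
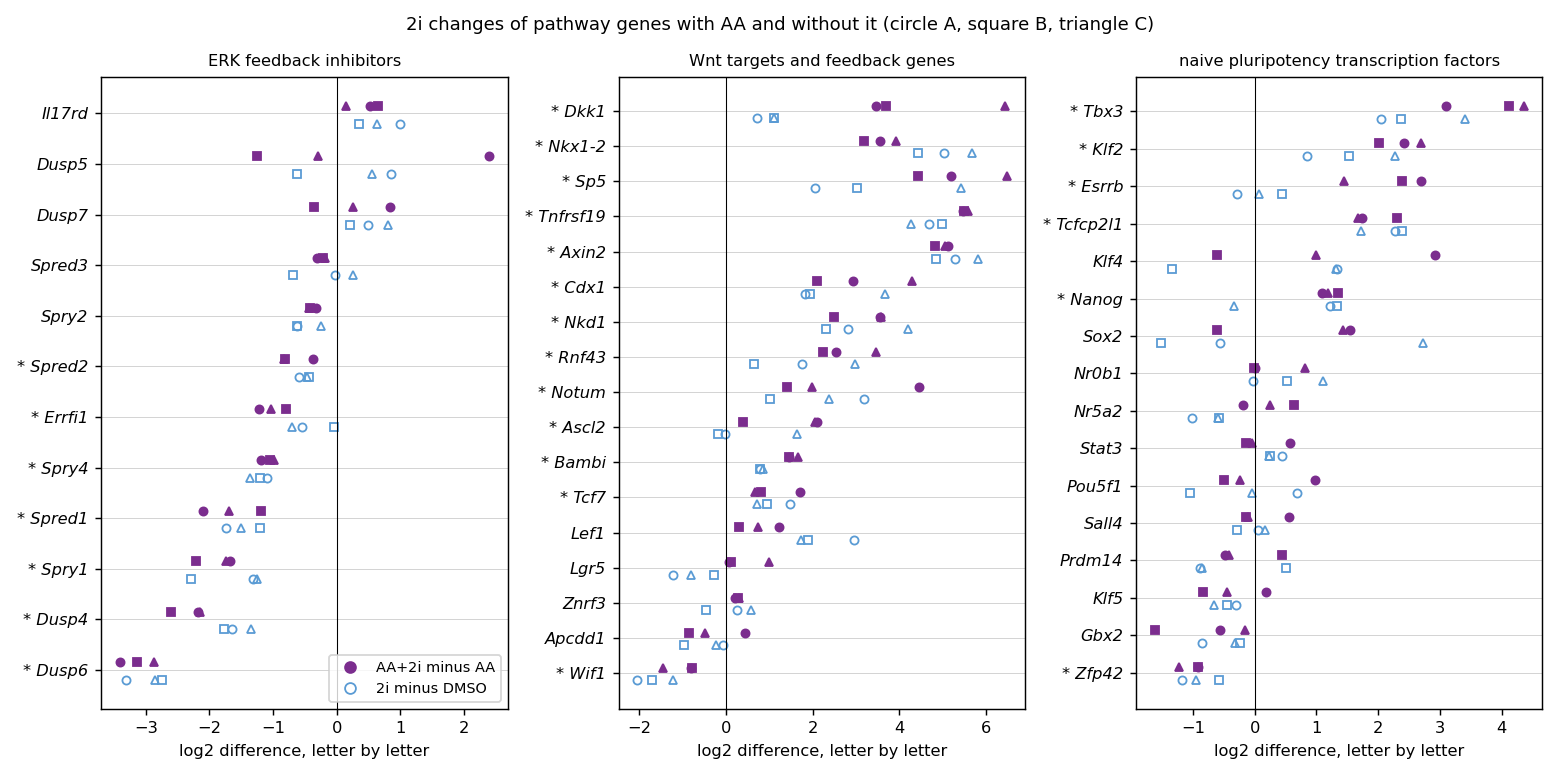
Differences of log2 CPM within each letter for the tested ERK feedback inhibitors, Wnt targets and feedback genes, and naive pluripotency transcription factors, with filled symbols for AA+2i minus AA and open symbols for 2i minus DMSO. Circles, squares and triangles are letters A, B and C, and an asterisk marks genes called in AA+2i against AA. Dusp6 lies near −3 in all letters of both comparisons, Axin2 near 5, and Esrrb at 1.44 to 2.70 with AA and near 0 without it.

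The Dppa and germline-linked genes did not move together, with 2 called higher and 5 lower of 10 tested. Over all genes tested 6.72% were higher and 8.15% lower. Dppa3 (Stella), a maternal factor expressed in naive cells and germ cells, rose from 0.80, 0.92 and 3.20 TPM to 9.18, 12.77 and 19.44 TPM (log2 change 3.44 ± 0.29, adjusted p = 0.000111, called in all 4 models). Piwil2, a protein of the piRNA pathway, fell from 13.84, 10.81 and 9.05 TPM to 0.79, 0.92 and 0.59 TPM, a 12.9-fold change. Dppa2 fell by 1.64, Ooep by 1.47 and Dppa4 by 1.32 on the log2 scale. Dppa5a was the most abundant member. It was at 1419, 1232 and 1665 TPM with AA and at 511.4, 763.0 and 746.7 TPM with AA+2i (log2 change −0.90 ± 0.23, adjusted p = 0.0308). Dppa4 and Dppa5a were not called without the block (adjusted p = 0.191 and 0.171), while Piwil2, Dppa2 and Ooep were called in all 4 models. Without letter C, Dppa2 (adjusted p = 0.0852) and Ooep (0.133) were not called, and Ooep was not called without letter A (0.0668). Tdh, threonine dehydrogenase, which is highly expressed in embryonic stem cells, rose by 0.60 on the log2 scale but was not called without the block (adjusted p = 0.338). Gdf3 (log2 change 0.12) and Utf1 (−1.19) did not pass.

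Of the primed epiblast and primitive streak genes, 5 of 11 tested were called lower and 2 higher, beside 8.15% lower and 6.72% higher over all genes tested. Otx2, a homeobox factor of the primed epiblast, fell from 58.56, 55.76 and 91.92 TPM to 12.45, 14.59 and 15.14 TPM (log2 change −2.06 ± 0.19, adjusted p = 0.00016). Fgf5, the classical primed marker, was at 1.38, 1.05 and 3.68 TPM with AA and at 0.12, 0.00 and 0.03 TPM with AA+2i. Eomes, a T-box factor of the streak, fell by 0.97 on the log2 scale, and Pou3f1 (−1.79) and Evx1 (−1.24) were lower with AA+2i in each letter, but their libraries overlapped and neither was called without the block (adjusted p = 0.335 and 0.435). The 2 members called higher were Wnt ligands of the streak. Wnt8a rose 12.5-fold, from 3.21, 5.62 and 6.88 TPM to 52.77, 53.50 and 57.90 TPM (log2 change 3.64 ± 0.27, adjusted p = 5.73e-05), and Wnt3 rose by 2.70 on the log2 scale but not in all 4 models.

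**Figure D3:**
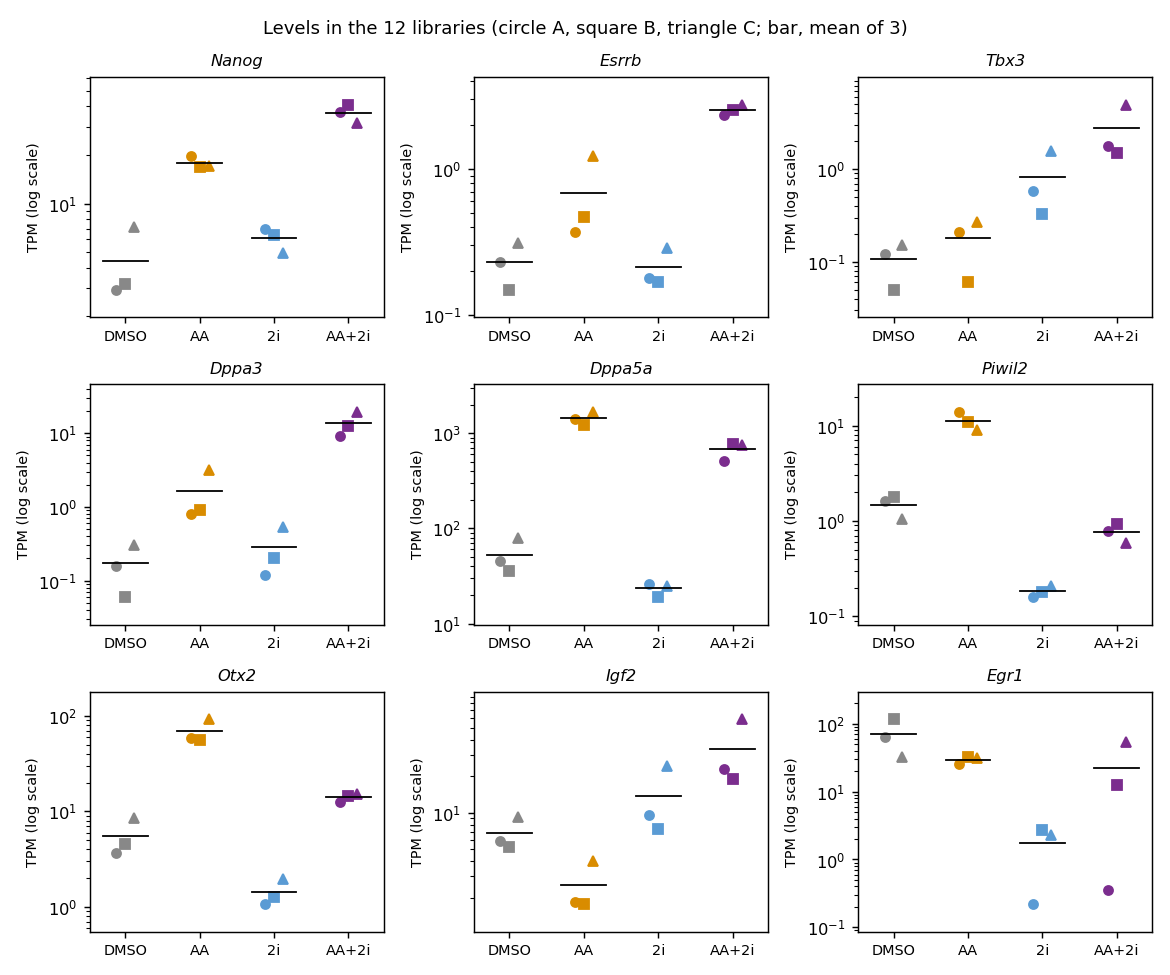
TPM on a log axis of Nanog, Esrrb, Tbx3, Dppa3, Dppa5a, Piwil2, Otx2, Igf2 and Egr1 in DMSO, AA, 2i and AA+2i, 1 point per library (circle A, square B, triangle C) and a bar at the mean of 3. Dppa5a, Piwil2 and Otx2 are highest with AA, Nanog, Esrrb, Tbx3, Dppa3 and Igf2 are highest with AA+2i, and Egr1 runs from 0.35 to 54.76 TPM within AA+2i.

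Set beside DMSO and 2i alone, these genes fell into different patterns. Mean levels of Dppa5a were 53.15 (DMSO), 1438 (AA), 23.43 (2i) and 673.7 TPM (AA+2i), so that AA+2i lay below AA and above both cultures without AA. Otx2 had the same order, with means of 5.57, 68.75, 1.44 and 14.06 TPM in DMSO, AA, 2i and AA+2i. Piwil2 was at means of 1.48, 11.23, 0.18 and 0.77 TPM in these conditions, and AA+2i lay below DMSO. Dppa3 (means of 0.17, 1.64, 0.28 and 13.80 TPM) and Nanog (4.41, 17.83, 6.08 and 36.58 TPM) were highest with AA+2i.

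Of the growth factor lists, the EGF, TGF-β, FGF and IGF lists held 3 to 5 called falls each. Over all genes tested 8.15% were lower and 6.72% higher. Of the EGF receptors and ligands 3 of 12 tested were lower: the ligand genes Nrg1 (log2 change −2.71 ± 0.50) and Hbegf (−1.44 ± 0.29), and the receptor gene Egfr (−1.28 ± 0.16). Egfr fell from 66.29, 38.06 and 21.05 TPM to 18.75, 16.63 and 8.51 TPM and was not called without the block (adjusted p = 0.0933). Of 13 genes of the TGF-β axis 5 were lower, among them the target Tgfbi (from 20.73, 21.56 and 37.52 TPM to 4.85, 4.56 and 3.05 TPM), the latent binding protein gene Ltbp1 (log2 change −1.55) and the receptor gene Tgfbr2 (−1.18). These 3 were called in all 4 models, and Skil (−0.81) and Smad3 (−0.67) were not. All 3 called members of the 6 tested FGF ligands and receptors were ligands and were lower in all 4 models. They were Fgf5, Fgf1 (log2 change −1.87) and Fgf4, an epiblast ligand, which fell from 63.52, 49.71 and 59.95 TPM to 28.27, 29.43 and 24.15 TPM. The IGF axis gave 4 falls and 1 rise among 12 tested genes. The receptor genes Igf1r (−1.36) and Insr (−0.71) and the binding protein genes Igfbp7 (−1.46) and Igfbp3 (−0.97) fell, and of these Igfbp3 alone was called in all 4 models. The rise was Igf2, given below. Of 10 BMP and Id genes 1 was called lower, and of 9 LIF and STAT3 genes 1 was, the kinase gene Pim1 (−0.86), which was not called without the block (adjusted p = 0.0715). These shares are near the 8.15% lower over all genes tested.

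The counts of the next lists stand beside 8.15% lower and 6.72% higher over all genes tested. Integrins and laminins, the receptors and building blocks of the basement membrane, were called lower for 8 of 21 tested members, 5 of them in all 4 models. They were called higher for 0 (2 at an unadjusted edgeR p under 0.05, 1 by DESeq2 and 0 by limma), although 9 of the 21 had a positive log2 change. Lamb1 fell 6.2-fold, from 41.51, 46.17 and 37.95 TPM to 6.89, 6.04 and 4.94 TPM (log2 change −2.63 ± 0.22, adjusted p = 0.000111). Lama3, another laminin chain gene called in all 4 models, fell by 3.01 on the log2 scale. Itga6, a laminin receptor, was at 287.9, 182.3 and 145.9 TPM with AA and at 120.8, 104.6 and 50.01 TPM with AA+2i, and lost its call without the block (adjusted p = 0.125). The epithelial genes gave 5 rises and 1 fall among 14, and the share of falls is near that of all genes. Dsp, desmoplakin of cell junctions, rose from 19.19, 14.63 and 12.61 TPM to 49.36, 38.07 and 26.15 TPM and was the rise called in all 4 models. Cldn4, a tight junction protein, rose from 4.61, 19.36 and 35.77 TPM to 89.89, 72.21 and 172.3 TPM but was not called without the block (adjusted p = 0.107). Cdh1 (E-cadherin) rose by 0.59 on the log2 scale (adjusted p = 0.0428, and 0.129 without the block), and Grhl2, an epithelial transcription factor, fell by 2.27 at levels under 1 TPM.

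The counts of the next 3 lists stand beside 8.15% lower and 6.72% higher over all genes tested. Of the G1 cyclins and CDK inhibitors 3 of 14 were lower and 1 was higher, and the share of the higher is near that of all genes. Ccnd1 (cyclin D1), which ERK signalling induces, fell from 143.2, 156.8 and 166.4 TPM to 91.31, 75.02 and 72.89 TPM (log2 change −0.79 ± 0.14, adjusted p = 0.0046), and Ccne1 (cyclin E1) fell by 0.77. Both were called in all 4 models but not without letter C (adjusted p = 0.214 and 0.167). The calls of Cdk6 (−0.70) and of the inhibitor gene Cdkn1a (0.59) were not made in all 4 models. Replication and mitosis genes gave 3 falls among 19, none of them in all 4 models. Of the 19, 16 had a negative and 3 a positive log2 change (median −0.36). Limma on log2(TPM + 1), where the median of all genes was −0.14, called 7 lower, and DESeq2 called 3. Their summed level was 4206 to 5978 TPM with AA and 2721 to 3705 TPM with AA+2i. Among 9 DNA methylation enzymes the de novo methyltransferase genes Dnmt3b (−0.80) and Dnmt3a (−0.53) and the dioxygenase gene Tet1 (−1.43) were lower, but none of the 3 was called without the block. Tet1 was at 65.55, 31.69 and 24.48 TPM with AA and at 17.14, 16.04 and 6.44 TPM with AA+2i. Tet2 did not pass (−0.19 ± 0.13, adjusted p = 0.338). Uhrf2 rose by 1.10 on the log2 scale and was called in all 4 models, but not without letter C (adjusted p = 0.229).

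The metabolic and stress lists are set beside the 6.72% higher and 8.15% lower over all genes tested. Glycolysis and hypoxia genes gave 0 calls among 19 tested by edgeR, with 1 higher and 2 lower at an unadjusted p under 0.05, 0 by DESeq2 and 2 lower by limma. Cholesterol synthesis genes gave 4 falls among 17, NRF2 targets 3 rises among 12, and interferon and antigen presentation genes 3 rises among 14, and none of these calls was made in all 4 models. Of 22 glutathione transferases 2 rose and 3 fell, and the calls made in all 4 models were Gsta1 (from 226.4, 178.5 and 280.0 TPM to 50.71, 62.99 and 46.74 TPM) and Mgst1 (log2 change 1.24).

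**Figure D4:**
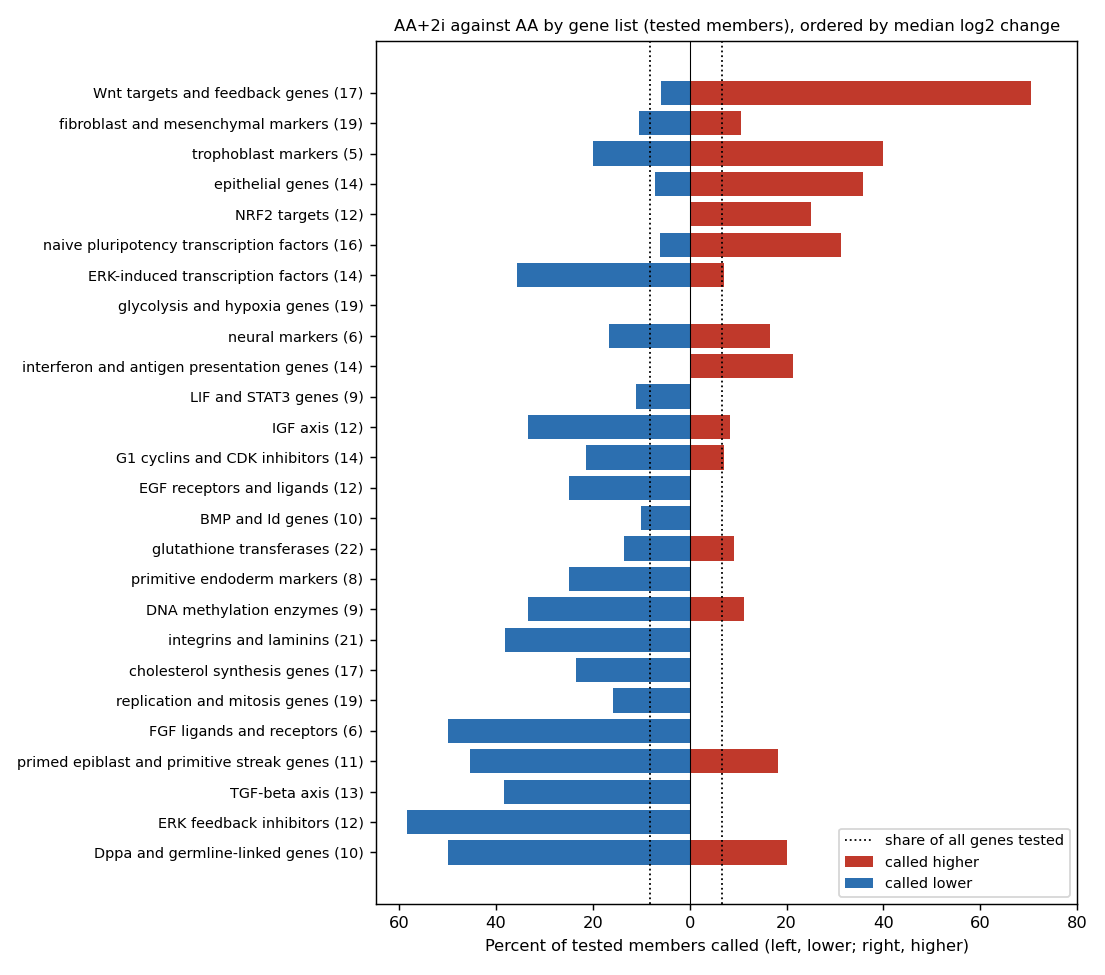
Percent of the tested members of each gene list called higher (to the right) or lower (to the left) with AA+2i than with AA, ordered by the median log2 change, with the number tested in brackets and dotted lines at 6.72% higher and 8.15% lower for all genes tested. The Wnt list stands at 12 of 17 members higher and the ERK feedback list at 7 of 12 lower.

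Markers of other cell types were read as whole lists. Their calls stand beside 6.72% higher and 8.15% lower over all genes tested. The counts of the fibroblast list are near these shares, and the other lists are too small for their counts to be more than a description. The summed level of 21 fibroblast and mesenchymal markers was 1111 to 1187 TPM in the AA libraries and 1091 to 1356 TPM in the AA+2i libraries, most of it Vim (674.1 to 905.7 TPM). Lum was at 0 in all 6 libraries and Dcn between 0 and 0.23 TPM. Of 19 tested members 2 were higher, Zeb2 (log2 change 2.89) and Col3a1 (2.40), and 2 lower, Pdgfra (−2.23) and Zeb1 (−1.10, adjusted p = 0.0995 without the block). Thy1, a surface marker of fibroblasts, was at 6.69, 15.12 and 15.99 TPM with AA and at 4.58, 4.65 and 2.17 TPM with AA+2i and did not pass (adjusted p = 0.0585). The 15 epithelial genes summed to 355.9 to 705.5 TPM with AA and 509.0 to 709.5 TPM with AA+2i, with 5 called higher and 1 lower of 14 tested. Of these, Cdh1 (82.83 to 142.6 TPM) and Epcam (123.8 to 227.9 TPM) were present in all 6 libraries, while Grhl2 was low. The 11 primitive endoderm markers summed to 352.3 to 520.2 TPM with AA and 341.1 to 366.1 TPM with AA+2i, with means of Gata4, Sox17 and Sox7 at or below 0.10 TPM in both conditions and Lamb1 and Pdgfra the called members, both lower. Trophoblast markers summed to 4.17 to 10.58 TPM with AA and 4.59 to 17.02 TPM with AA+2i (2 higher and 1 lower of 5 tested). Neural markers summed to 64.91 to 76.07 TPM and 56.85 to 68.88 TPM, with 1 higher and 1 lower of 6 tested. The part of other cells in the changes above was not tested.

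The change with 2i was then set against its change without AA, in the 6 libraries of 2i and DMSO. The comparisons share no library. Of the 900 genes higher with AA+2i than with AA, 863 (95.9%) were also higher with 2i than with DMSO, against 49.7% of all genes tested. Of the 1092 lower genes 1081 (99.0%) were also lower, against 50.3%. Among the genes called in all 4 models 342 of 356 and 429 of 433 had the same direction. AA A and DMSO A were both low for GC-rich transcripts, as given above. The 4 models apply here to the calls of AA+2i against AA only. The direction of 2i against DMSO was taken from the main model, which has no GC curves. The part of this shared deviation in the agreement of direction was not tested. Without AA, 686 genes were called higher with 2i (5.12% of those tested) and 1096 lower (8.18%). Of the 900 genes 464 (51.6%) were called higher there too, which is 67.6% of the 686, and of the 1092 genes 701 (64.2%) were called lower, which is 64.0% of the 1096. Of the 2 genes called in opposite directions, Bckdhb changed by 1.22 on the log2 scale with AA and by −0.59 without it. Over all tested genes the changes had a Pearson r of 0.789 across genes, which are not independent replicates, and of 0.77 with the GC curves.

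The list medians of the log2 change with AA and without it were 2.72 and 1.93 for the Wnt list, −0.84 and −0.50 for ERK feedback inhibitors, 0.19 and −0.90 for ERK-induced transcription factors, −0.07 and −0.94 for EGF receptors and ligands, and 0.64 and −0.34 for epithelial genes. These differences between lists were not tested. Among single genes, Dusp6 changed by −3.14 with AA and by −2.99 without it, Dusp4 by −2.33 and −1.59, Tac2 by −7.15 and −6.59, Axin2 by 5.25 and 5.56, and Wnt8a by 3.64 and 3.93, all on the log2 scale. Dkk1 differed more, with 10 counts in the 2i libraries against 3 in DMSO without AA (ratio 4.71, interval 1.21 to 26.6), but the test of the difference did not pass after adjustment (log2 difference 5.73, adjusted p = 0.289). For Esrrb the change without AA was 0.14 on the log2 scale, against 2.19 with AA, a difference of 2.05 ± 0.49 with an unadjusted edgeR p-value of 0.00199 and an adjusted p of 0.430. Egr1 changed by −5.63 without AA (adjusted p = 0.0228) and by −0.89 with AA, and this difference did not pass after adjustment either (adjusted p = 0.819).

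**Figure D5:**
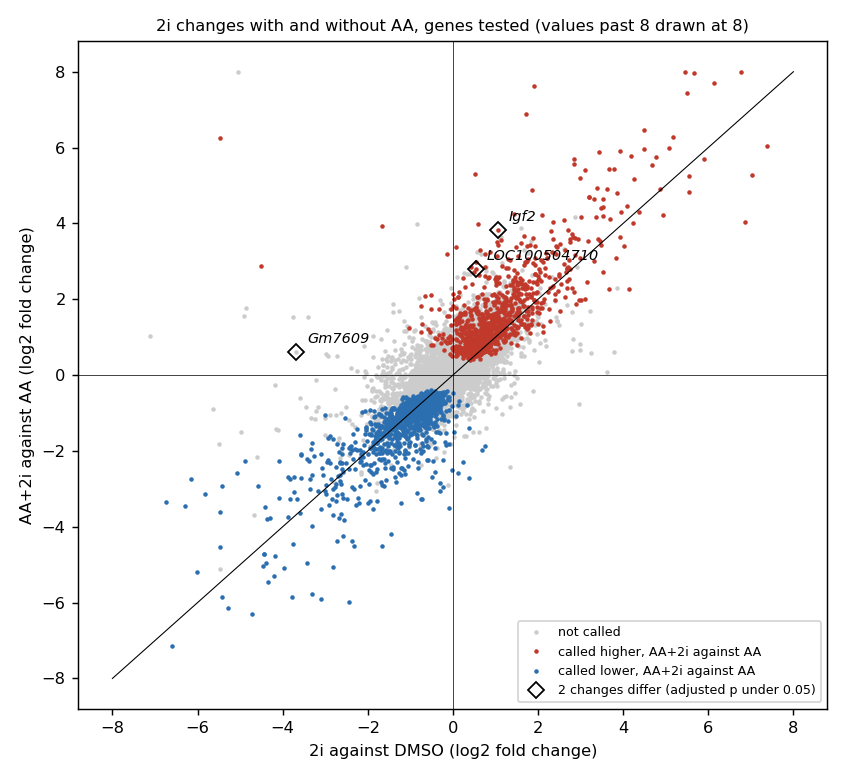
Log2 fold change of 2i in the presence of AA (AA+2i against AA, vertical axis) and in its absence (2i against DMSO, horizontal axis), 1 point per gene tested, with calls of AA+2i against AA in colour and 3 genes called for the difference as diamonds. Values past 8 are drawn at 8. Points follow the diagonal (r = 0.789 across genes), and Igf2, LOC100504710 and Gm7609 lie off it.

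A direct test of the difference between the changes called 4 genes (0.0299% of those tested), and 639 genes had an unadjusted edgeR p-value under 0.05. The 3 described here are Igf2, LOC100504710 and Gm7609. Igf2, the growth factor of the imprinted locus on chromosome 7 (mm9 149836673 to 149852721), was at 1.84, 1.77 and 4.0 TPM with AA and at 23.09, 18.83 and 58.98 TPM with AA+2i, beside 5.82, 5.24 and 9.28 TPM in the DMSO libraries and 9.54, 7.29 and 24.51 TPM in those of 2i. AA libraries were the lowest and AA+2i C the highest. The rise with 2i was 3.82 ± 0.23 on the log2 scale with AA and 1.05 without it, a difference of 2.76 ± 0.30 (adjusted p = 0.0178, and 1.0 without the block). LOC100504710 was at 31.82, 37.65 and 39.38 TPM with AA and at 210.7, 200.7 and 253.2 TPM with AA+2i. Its change of 2.80 with AA stood against 0.54 without AA (difference 2.25 ± 0.22, adjusted p = 0.0113, and 0.143 without the block). For Gm7609 the DMSO libraries stood apart. It was at a mean of 9.84 TPM with DMSO and at 0.97, 0.67 and 1.33 TPM with AA, 2i and AA+2i, and its difference was 4.28 ± 0.37 (adjusted p = 0.00877). It fell by 3.68 on the log2 scale without AA, and AA+2i did not pass against AA (0.60 ± 0.26, adjusted p = 0.15). Gm7609 and LOC100504710 are predicted genes that may have near-identical copies, and their levels are uncertain to that extent. With any 1 letter left out edgeR's test called 0 genes, with 687, 394 and 256 at an unadjusted p under 0.05 without A, B and C. The other tools, run on all letters, called 49 genes (DESeq2) and 27 (limma on log2(TPM + 1)).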

How the data were processed

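RNA was sequenced from 12 libraries with TruSeq and single-end 100-base reads. The authors trimmed the reads, aligned them with Bowtie2 to RefSeq genes of mm9 and estimated expression with RSEM 1.2.4, without strand. The deposited expected counts are raw estimates and can hold fractions. The deposited TPM are scaled within each library. One malformed TPM cell (AA C, 0610011F06Rik) was rebuilt from the FPKM of the same file as 40.57, and the deposited FPKM column was used for nothing else. Library totals of 16173322 to 54392719 counts set the precision of low genes, and count intervals cover counting error only.

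After rounding, the expected counts entered edgeR 4.0.16 (R 4.3.3, RLE factors, quasi-likelihood test, a mean per condition, the replicate letter as a block, 6 residual degrees of freedom). Genes needed 10 counts in 3 libraries, which 13400 of 20325 had. The contrasts were AA+2i minus AA, 2i minus DMSO and their difference. SEs were derived from the test statistics, so they restate the test. GC curves were loess fits (span 0.4) of log2 CPM deviations (prior count 2), entered as offsets, with GC content known for 99.25% of the tested genes. Samples were grouped and lettered by their titles. Same-letter AA and AA+2i libraries deviated together with r of 0.188 (A), −0.543 (B) and 0.761 (C), so the letters do not all pair. AA+2i B deviated with the libraries of letter A (r of 0.693 with DMSO A, 0.769 with AA A and 0.76 with 2i A). With those of its own letter r was −0.588 for DMSO B and 0.067 for 2i B. The study's own test (EBSeq) was not used here. DESeq2 1.42.0 and limma 3.58.1 gave alternatives. Simulated counts were used to test the main fit, TMM factors, no block, GC curves with the block, DESeq2 and limma on log2(CPM + 1). The other fits were not tested in this way. The simulated counts held no letter effect and no GC bias, so they do not show how the fits deal with either. Positions are from GENCODE M1 on mm9, matched by symbol for 20022 genes, accession for 140 and synonym for 19. Promoter windows were matched for 10690 tested genes.

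Named genes were the 10 largest called changes in each direction with at least 5 TPM in the higher condition and 1 direction in all letters, up to 6 called members per direction of each of 26 lists, members the study names, and the genes called for the difference. Some genes that this rule names are not reported here. The comparison and the lists were chosen with earlier results of these data known.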

Additional observations from a re-analysis of the deposited data

Results flagged for a closer look

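For Igf2, LOC100504710 and Gm7609 the change with 2i differed between cultures with and without AA by edgeR's test of the difference itself. The log2 differences, with AA minus without AA, were 2.76 for Igf2, 2.25 for LOC100504710 and 4.28 for Gm7609. Igf2 and LOC100504710 rose more with AA, in all 3 letters, while Gm7609 fell with 2i from its DMSO level and was low in all AA libraries. The adjusted p was under 0.05 for Gm7609 in each edgeR model and tool run on all letters and in which it was tested. For Igf2 it was 0.421 with GC curves and no block and for LOC100504710 0.0833 in that model. The cause was not tested.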

How the results depend on the processing

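AA+2i against AA gave 900 higher and 1092 lower genes. Limma on log2(TPM + 1) gave 573 and 1703 and on log2(TPM + 0.1) 576 and 1715, where the median of all genes was −0.14 and −0.17 and the share of calls that were higher was 25.2% and 25.1%, against 45.2%. A fit of only the 6 libraries compared gave 150 and 141, the GC correction with the replicate block 1718 and 1988, and leaving out 1 letter 116 to 1831 higher and 83 to 1891 lower, with letter C the most costly (58.3% higher without it). Without the replicate block 376 genes were higher and 441 lower. TMM factors, DESeq2, no count filter, 10 counts in every library and the GC correction without the block kept both counts within 1.5 times. The difference with and without AA gave 4 genes, but 49 by DESeq2, 27 and 7 by limma with pseudocounts 1 and 0.1, 2 with 10 counts in every library, 2 without the block, 27 with the GC correction and the block, 2 with the GC correction alone and 0 to 0 on leaving out a letter. Of the 120 named genes that were called, 69 were called without the block, 92 with the GC correction alone, 116 with both, 46 of 118 in the 6 libraries, 78 of 115 without A, 103 without B and 39 without C, and none reversed. The causes were not tested. Over all pairs of libraries with the same letter the deviations correlated with r from −0.588 to 0.894. Depth limits genes with a few counts, such as Dkk1 in AA.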

Other observations

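Genes outside the fixed lists were looked up after their values were seen. Their calls and p-values are therefore descriptive and do not allow for that choice. Other gene families looked up in the same way are not described. The kallikreins, a cluster of secreted proteases, held 7 lower and 1 higher call among 13 tested genes (median log2 change −1.52), against 8.15% lower and 6.72% higher over all genes. Klk1, the most abundant, was at 767.9, 1063 and 1341 TPM with AA and at 216.9, 248.6 and 227.1 TPM with AA+2i (log2 change −1.99 ± 0.27, edgeR adjusted p = 0.00137), and its change without AA was −2.25. Kallikrein genes are close copies and may share reads. Of 11 Wnt ligand genes 5 were called higher by edgeR, and Wnt8a alone was called in all 4 models. Alpl, tissue-nonspecific alkaline phosphatase, rose from 3.07, 4.53 and 4.96 TPM to 39.03, 30.87 and 42.22 TPM, and Kit, the receptor of stem cell factor, from 15.16, 11.49 and 11.01 TPM to 40.43, 38.24 and 24.91 TPM.

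Lin28a, an RNA-binding protein of pluripotent cells, was at 3.73, 2.99 and 8.33 TPM with AA and at 0.59, 0.48 and 0.83 TPM with AA+2i (log2 change −2.71 ± 0.33), while without AA it changed by 0.39. The edgeR test of this difference (−3.10) gave an adjusted p of 0.0875, and 0.0232 with GC curves and the block. AA467197 rose by 3.30 on the log2 scale with AA, to 92.46, 131.4 and 173.7 TPM, and by 0.65 without it (edgeR adjusted p of the difference 0.0875, and 0.00591 with GC curves and the block).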
